A study of Rattus norvegicus with 8 samples.

Results

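The genes described here are those of mitochondrial oxidative phosphorylation, taken from an array table of rat liver by gene symbol alone. A probe was taken where the symbol printed in the table starts with Nduf, with Sdh followed by a, b, c or d, with Uqcr, with Cox4 to Cox8, or with Atp5. This gave 85 of 23615 probes and 68 of 21209 features, a feature being a gene with a symbol or a single probe without one. Of the 68 genes, 29 are subunits of complex I, 3 of complex II, 5 of complex III, 12 of complex IV (with Ndufa4, now counted to that complex) and 12 of complex V, and 4 are assembly factors. The remaining 3 carry names that the rule takes but were counted neither to a complex nor to the assembly factors. They are Emc8 (Cox4nb in the table), a subunit of a membrane protein complex of the endoplasmic reticulum, Dmac2l (Atp5s), and the pseudogene Cox6c-ps1 (Cox6c1).

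The livers came from 8 Sprague Dawley rats of unstated age. The labels describe 4 rats injected intraperitoneally with lipopolysaccharide (LPS, an endotoxin of Gram-negative bacteria; 3 mg/kg) and 4 controls, which they call injected with 0.9% sodium chloride in one place and non-treated in another; livers were taken at 24 h. The headers of the table instead give day 2, with 1000 mkd (High) for LPS arrays 2 to 4, 100 mkd (Mid) for LPS array 1, and 0 mkd for the controls, and the files do not settle which holds. Each liver RNA, in Cy5, was read on its own array against a pool of control liver RNA in Cy3. The measure used throughout is the log2 ratio of liver over pool on the same array, and a difference is LPS minus control on that scale.

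Oxidative phosphorylation is the last stage of respiration. Complex I takes electrons from NADH and complex II from succinate, both hand them to ubiquinone, and complex III passes them through cytochrome c to complex IV, which reduces oxygen. Complexes I, III and IV pump protons across the inner mitochondrial membrane, and complex V, the ATP synthase, uses the gradient to make ATP. Hepatocytes are rich in mitochondria and spend much of this ATP on making glucose and urea. Every member here is a nuclear gene; subunits encoded by mitochondrial DNA are not analysed here.

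Arrays are numbered in table order within a group, and a p-value measures the spread between these livers. A ratio was available for 23408 to 23529 probes on an LPS or control array. The intensities have 2 decimals, apart from some of the smallest (Cox8c read 0.00593 units in the liver channel of control array 2). On the LPS arrays 4.71% to 8.24% of member probes read the same in both channels, giving a ratio of 0, against 7.14% to 14.3% on the control arrays. Hepatocyte markers were bright in all livers: the 8 of 11 markers with values on every array summed to 79.5 to 87.4 units in LPS livers, against 115 to 144 units in control livers. The sum leaves out Apoa1, Arg1 and Ttr, which lacked values on some arrays. Of the 8 tested, 3 fell (Alb, Apoa2 and Apoc3), 1 rose (Serpina1, a dim probe) and 4 were not called. The 12 neutrophil markers summed to 8.12 to 13.8 units in LPS livers and 0.69 to 0.83 units in control livers, a sum made mostly by S100a9 (9.35 units in LPS livers, against 0.235 units in control livers). Of the 12, 4 rose (S100a9, S100a8, Csf3r and Mmp8) and 8 were not called, with Mpo near the smallest steps in both (0.0375 and 0.0275 units). The 11 macrophage and Kupffer cell markers summed to 29.0 to 47.2 units in LPS livers, against 40.8 to 58.1 units in control livers; 2 of them rose (Adgre1 by 1.06 and Lyz2 by 1.76, log2), 2 were lower (Clec4f at -2.30 and Vsig4 at -0.45), and C1qa was not called (-0.62, limma adjusted p = 0.0566). The 11 T, NK and B cell markers summed to 3.1 to 4.44 units in LPS livers, against 1.8 to 2.17 units in control livers. In whole liver, fewer cells of a type and less RNA per cell cannot be told apart, and the part of these shifts in cell markers in the results below was not tested.

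The oxidative phosphorylation genes stayed close to the control livers as a group, with a few exceptions in each direction. Of the 67 genes tested, 5 rose after LPS (Ndufab1, Ndufs1, Atp5po, Ndufb4 and Ndufaf3) and 6 fell (Ndufaf1, Ndufa6, Cox8b, Cox4i1, Cox6b2 and Atp5f1c), and 56 did not pass an adjusted p of 0.05 in limma. This is 16.4% called, with 24.7% of all 21052 features called in the same fit (12.2% higher and 12.4% lower). The median difference of the members was -0.02, with 33 genes above 0 and 34 below it, against a median of -0.04 over all features, and the members ran from -0.62 (Ndufaf1) to 0.79 (Ndufab1). Only 2 members (2.99%) differed by 1.5-fold or more, against 12.8% of all features. For 59 of the 67 (88.1%) the 95% confidence interval of the difference lay wholly within 1.5-fold either way, which was so for 64.3% of all features. Against a 1.5-fold change itself, limma called 0 members, where 1.86% of all features were called. The missing gene is Atp5me (Atp5i), a small membrane subunit of complex V. It had ratios of 0.25, -0.14 and -0.30 on LPS arrays 2 to 4 and a single control value of 0.03, too few to test, and was the brightest of the 68 where it was read, at 46.3 units in LPS livers and 47.4 units in the control liver.

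**Figure D1:**
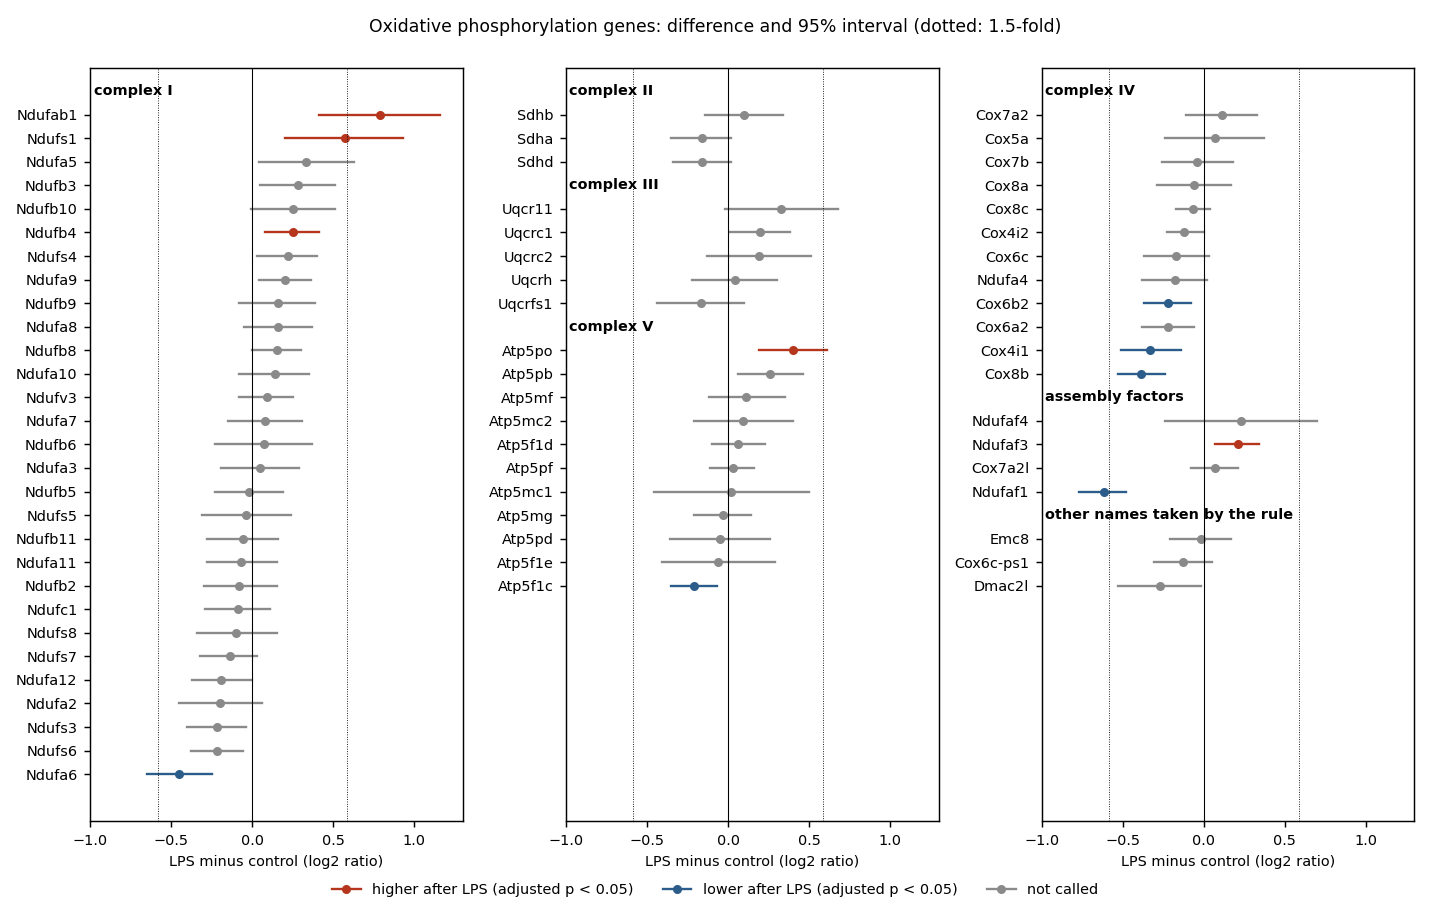
Difference between LPS and control livers (horizontal axis, log2 ratio of liver over pool) for the 67 tested genes, by complex, with the 95% confidence interval as a line. The 5 genes that rose are red, the 6 that fell are blue and the 56 not called are grey; dotted lines mark 1.5-fold, and 59 intervals lie between them.

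The counts rest on small differences and moved with single arrays. The count of 5 higher became 2 without LPS array 2 or without LPS array 3, and 3 without control array 1 or without control array 4, and the count of 6 lower became 3 without LPS array 4. Of the 11 called genes, 5 (Ndufab1, Atp5po, Ndufa6, Cox8b and Ndufaf1) stayed called whichever of the 8 arrays was left out. Other settings ended more calls: 2 of the 11 were kept with quantile-normalized ratios (Cox8b and Ndufaf1), 2 with the liver channel alone (Cox8b and Ndufa6), and 0 with a term for sets of arrays that stand apart in the pool channel.

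**Figure D2:**
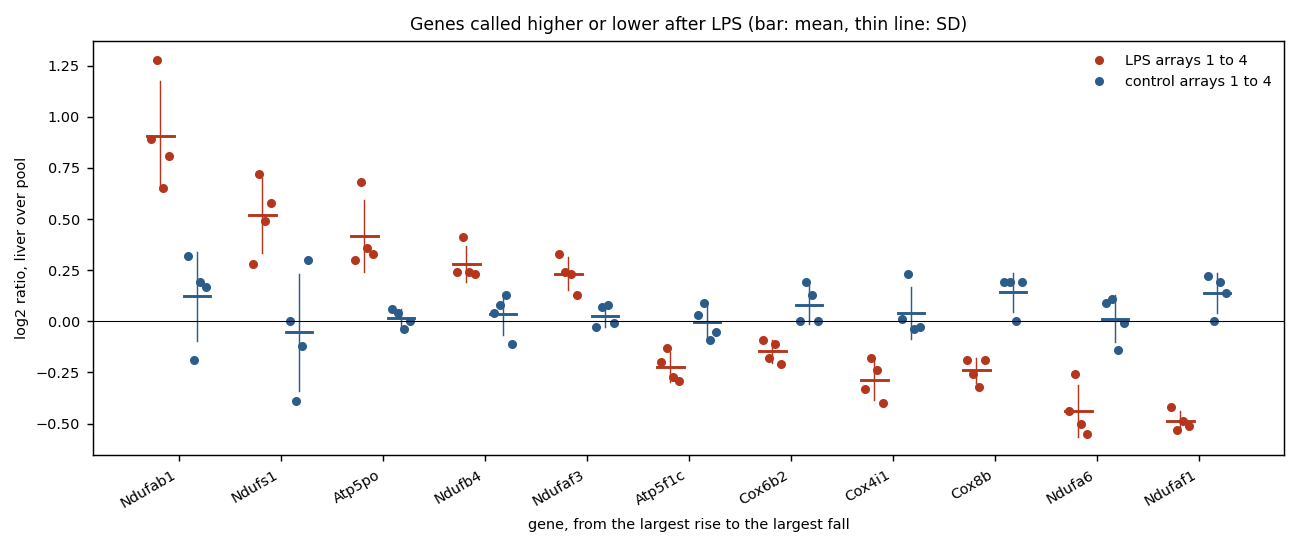
Log2 ratio of liver over pool on each array for the 11 genes called higher or lower, with LPS arrays in red left of control arrays in blue; the bar is the mean and the thin line the SD of 4 arrays. The 2 groups are apart for every gene shown except Ndufs1, where LPS array 1 at 0.28 lies under control array 4 at 0.30; of all features, 27.8% had 4 LPS values that did not overlap the 4 control values.

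Complex I, the entry point for electrons from NADH, held 3 of the 5 rises and 1 of the falls among its 29 genes, with a median difference of 0.07. This is 10.3% higher and 3.45% lower, both under the 12.2% and 12.4% of all features. Ndufab1, the mitochondrial acyl carrier protein that is also a subunit of complex I, had ratios of 0.89, 1.28, 0.65 and 0.81 on LPS arrays 1 to 4, against 0.32, -0.19, 0.19 and 0.17 on control arrays 1 to 4. All LPS arrays were above all control arrays, and the difference was 0.79 ± 0.16 (SE, n = 4 each; limma adjusted p = 0.0104), the largest rise of the 67. Its probe was dim, with 0.11 to 0.17 units in LPS livers and 0.07 to 0.10 units in control livers, so that 1 step of the deposited values is a large part of its level. Ndufs1, the largest core subunit, which carries iron-sulfur clusters of the electron path, had ratios of 0.28, 0.72, 0.49 and 0.58 in LPS livers, against 0.00, -0.39, -0.12 and 0.30 in control livers. Its groups overlapped, and the difference of 0.57 ± 0.16 (limma adjusted p = 0.0346) was not called without LPS array 2, 3 or 4 or without control array 1, 2 or 3. The Ndufs1 probe was dim as well, at 0.17 to 0.24 units in LPS livers and 0.12 to 0.21 units in control livers. Ndufb4, an accessory subunit of the membrane arm, had ratios of 0.24, 0.41, 0.24 and 0.23 in LPS livers and 0.04, 0.08, 0.13 and -0.11 in control livers. The groups did not overlap and the difference was 0.25 ± 0.07 (limma adjusted p = 0.0374), but that call was kept in only 1 of the 8 fits that leave out an array, the one without control array 3.

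Ndufa6, a small subunit that binds the acyl carrier protein within the complex, went the other way. Its ratios were -0.44, -0.26, -0.50 and -0.55 in LPS livers, against 0.09, 0.11, -0.14 and -0.01 in control livers. Every LPS array was below every control array, with a difference of -0.45 ± 0.08 (limma adjusted p = 0.00768). This was also plain in the liver channel, at 3.83, 3.95, 3.46 and 3.21 units on LPS arrays 1 to 4 and 5.58, 6.63, 5.06 and 6.56 units on control arrays 1 to 4. Ndufa6 and the acyl carrier protein gene Ndufab1, whose products touch each other, thus differed from control in opposite directions. The other 25 subunits of complex I were not called. They included Ndufb8, a membrane arm subunit and one of the 3 tested members with the highest liver intensity, whose difference was 0.15 (95% confidence interval 0.00 to 0.30, adjusted p = 0.122). For 25 of the 29 subunits the interval lay within 1.5-fold.

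None of the 3 measured subunits of complex II, succinate dehydrogenase, was called. Sdha, the flavoprotein that oxidises succinate, had ratios of -0.24, 0.05, -0.18 and -0.22 in LPS livers, against 0.06, 0.11, -0.07 and -0.04 in control livers, and differed by -0.16 (95% confidence interval -0.35 to 0.02, limma adjusted p = 0.182). Sdhd, a membrane anchor, had -0.18, -0.07, -0.18 and -0.14 in LPS livers, against -0.01, 0.17, -0.17 and 0.08 in control livers, and also differed by -0.16 (95% confidence interval -0.34 to 0.02, limma adjusted p = 0.181). Sdhb, the iron-sulfur subunit, had -0.12, 0.29, 0.04 and -0.01 in LPS livers, against 0.01, 0.02, -0.24 and 0.02 in control livers, and differed by 0.10 (95% confidence interval -0.14 to 0.34, limma adjusted p = 0.529). The groups overlapped for all of them, and each interval is inside 1.5-fold. Both Sdha and Sdhd passed the threshold when a single array was left out: Sdha at -0.23 without LPS array 2 (adjusted p = 0.0414) and Sdhd at -0.22 without control array 3 (adjusted p = 0.0416).

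Complex III, which moves electrons from ubiquinone to cytochrome c, had no called gene among its 5, with a median difference of 0.19 and 4 of the 5 above 0. The lowest p was that of Uqcrc1, a core protein of the complex. It had ratios of 0.20, 0.21, 0.21 and 0.16 in LPS livers, against 0.01, 0.18, -0.21 and 0.00 in control livers. The LPS livers were nearly alike, while control array 2 lay among them, and the difference of 0.20 ± 0.08 had a limma adjusted p of 0.112. Uqcrh, the hinge protein at the cytochrome c docking site, differed by 0.04 (95% confidence interval -0.22 to 0.30, adjusted p = 0.825). Uqcrfs1, the Rieske iron-sulfur protein, differed by -0.17 (adjusted p = 0.322), with LPS array 1 at -0.47 and LPS arrays 2 to 4 at -0.05, -0.13 and -0.10.

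Complex IV, cytochrome c oxidase, leaned down: 3 of its 12 genes fell and 0 rose, 10 of 12 differences were below 0, and the median was -0.15. Of all features, 12.4% were called lower, and 11773 of 21052 differences were below 0. The falls of Cox8b and Cox6b2, described below, came from dim probes. Cox4i1, the widely expressed form of the largest nuclear-encoded subunit, had ratios of -0.33, -0.18, -0.24 and -0.40 in LPS livers, against 0.01, 0.23, -0.04 and -0.03 in control livers. All LPS livers were below all control livers, by -0.33 ± 0.08 (limma adjusted p = 0.0223), a call lost without LPS array 1 or LPS array 4. The liver channel gave 3.15, 3.62, 3.27 and 2.94 units on LPS arrays 1 to 4, against 3.66, 4.15, 3.80 and 3.88 units on control arrays 1 to 4. Every LPS liver was thus also below every control liver before division by the pool. The 9 other genes, among them Ndufa4 at -0.18 (adjusted p = 0.175), were not called, and all 12 intervals were within 1.5-fold.

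Several subunits of complex IV exist in tissue forms, and both forms of some pairs were measured. Cox4i2, the lung form of subunit 4, had ratios of -0.08, -0.08, -0.08 and -0.17 in LPS livers, against 0.01, 0.10, 0.00 and -0.05 in control livers, a difference of -0.12 ± 0.05 without overlap (limma adjusted p = 0.125). Cox8b, the heart and muscle form of subunit 8, had -0.19, -0.26, -0.32 and -0.19 in LPS livers, against 0.19, 0.19, 0.00 and 0.19 in control livers, and fell by 0.39 ± 0.06 on the log2 scale (limma adjusted p = 0.00419). It is barely above the steps of the table, at 0.04 to 0.07 units in LPS livers and 0.07 to 0.08 units in control livers. Cox8a, the general form, had ratios of -0.08, -0.02, -0.02 and -0.04 in LPS livers and -0.14, 0.31, 0.02 and -0.12 in control livers. Its groups overlapped and its difference was -0.06 ± 0.10 (limma adjusted p = 0.7). Cox8c, the testis form, had a ratio of 0.00 on all LPS arrays, against 0.05, 0.14, 0.00 and 0.08 on the control arrays, at 0.0225 units in LPS livers and 0.0115 units in control livers, about the smallest step. Its ratios other than 0 rest on readings below that step, which carry more decimals.

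Cox6b2, the testis form of subunit 6b, had ratios of -0.09, -0.18, -0.11 and -0.21 in LPS livers, against 0.00, 0.19, 0.13 and 0.00 in control livers. The difference of -0.22 ± 0.06 passed the test (limma adjusted p = 0.034), although the liver channel read higher in LPS livers (0.143 units, against 0.10 units in control livers) and so did the pool channel (0.158 units on LPS arrays, against 0.095 units on control arrays). Its call was lost without LPS array 2, 3 or 4 or without control array 2 or 3. Cox6a2, the heart and muscle form of subunit 6a, had -0.25, -0.24, -0.26 and -0.24 in LPS livers, against 0.00, 0.14, -0.10 and -0.15 in control livers. It lay below control on every array at -0.22 ± 0.07 but missed the threshold (limma adjusted p = 0.0512). Here too the liver channel read higher in LPS livers (0.20 units, against 0.177 units in control livers), as did the pool channel (0.237 units on LPS arrays, against 0.182 units on control arrays). Member probes under 0.5 units as a set read higher on LPS arrays (median 0.17 in the pool channel and 0.14 in the liver channel, log2). The higher readings are thus not particular to Cox6b2 and Cox6a2. Cox7a2, the general form of subunit 7a, differed by 0.11 ± 0.09 (limma adjusted p = 0.451). Muscle markers summed to 1.35 to 1.65 units in LPS livers, against 1.39 to 2.04 units in control livers, and of the 11 measured Acta1 rose and none fell. The general partners Cox6a1 and Cox6b1 and the muscle form Cox7a1 are not analysed here.

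The start of Cox4i1 faces that of Emc8, which shares only an older name with the complex. In RefSeq (rat assembly GRCr8) the 2 transcription starts lie 148 bases apart on chromosome 19, on opposite strands. The 120 bases before each start are given from 5′ to 3′ on the gene's own strand because 93 bases of them are the same stretch read from either side, while Cox4i1 was called and Emc8 was not. Cox4i1 lies on the plus strand (chr19:65630263-65630382) and Emc8 on the minus strand (chr19:65630236-65630355); no capitals appear because neither stretch holds a match to the 4 motifs described further on.
Cox4i1: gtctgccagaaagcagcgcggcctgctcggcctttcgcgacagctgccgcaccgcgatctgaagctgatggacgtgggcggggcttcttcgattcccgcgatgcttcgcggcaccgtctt
Emc8: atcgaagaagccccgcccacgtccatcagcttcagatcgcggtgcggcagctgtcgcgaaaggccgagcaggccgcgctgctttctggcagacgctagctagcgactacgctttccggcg
Emc8 had ratios of -0.14, -0.05, 0.09 and -0.05 in LPS livers, against 0.00, -0.09, -0.14 and 0.17 in control livers, and differed by -0.02 ± 0.08 (95% confidence interval -0.21 to 0.17, limma adjusted p = 0.865). Cox4i1 had an interval of -0.51 to -0.14. The difference between the neighbours was not tested.

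Complex V, the ATP synthase, had 1 rise and 1 fall among 11 tested genes (9.09% each, against 12.2% and 12.4% of all features), with a median of 0.03. Atp5po (Atp5o), the subunit that ties the stationary stalk to the catalytic head, had ratios of 0.30, 0.68, 0.36 and 0.33 in LPS livers, against 0.06, 0.04, -0.04 and 0.00 in control livers. All LPS livers were above all control livers, and the difference of 0.40 ± 0.09 (limma adjusted p = 0.0152) stayed called whichever array was left out. In the liver channel it read 3.08, 3.73, 3.05 and 3.15 units on LPS arrays, against 2.85, 2.92, 2.68 and 3.09 units on control arrays, so that LPS array 3 and LPS array 1 were level with control array 4 there, while the pool channel read 2.43 units on LPS arrays and 2.86 units on control arrays. The 120 bases before the Atp5po start (minus strand, chr11:44657484-44657603 of GRCr8) hold overlapping matches, on both strands, to the motif of nuclear respiratory factor 1 (NRF1), set in capitals; the motif is spelled out with the promoters further on.
Atp5po: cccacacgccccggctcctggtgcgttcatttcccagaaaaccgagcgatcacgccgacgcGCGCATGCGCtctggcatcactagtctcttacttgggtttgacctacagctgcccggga
Atp5pb (Atp5f1), another part of the stationary stalk, had ratios of 0.09, 0.48, 0.15 and 0.28 in LPS livers, against 0.02, -0.01, -0.05 and 0.00 in control livers. Its groups were apart as well, but the difference of 0.26 ± 0.09 missed the threshold (limma adjusted p = 0.0605). Atp5mc1 and Atp5mc2, which encode the same ring subunit, differed by 0.02 (95% confidence interval -0.46 to 0.50) and 0.09 (95% confidence interval -0.21 to 0.40), with the widest of these intervals belonging to Atp5mc1, whose ratios ran from -0.33 to 0.49 in LPS livers and from -0.29 to 0.35 in control livers.

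Atp5f1c (Atp5c1), the rotating central shaft of the synthase, was called lower at -0.21 ± 0.06 (limma adjusted p = 0.0405), but its 2 probes gave different answers. The bright probe, at 9.74 units in LPS livers and 11.3 units in control livers, had ratios of -0.05, 0.17, 0.01 and -0.02 in LPS livers, against 0.05, 0.12, -0.10 and -0.02 in control livers. It was not called, at 0.01 ± 0.07 (adjusted p = 0.91 with every probe tested on its own). The dim probe had -0.34, -0.42, -0.54 and -0.56 in LPS livers, against 0.00, 0.06, -0.09 and -0.09 in control livers, and gave -0.44 ± 0.07 (adjusted p = 0.00329). Its liver channel read higher in LPS livers, at 0.278 units, against 0.225 units in control livers, with the pool channel at 0.387 units on LPS arrays and 0.228 units on control arrays. Dim member probes as a set also read higher on LPS arrays in both channels. The gene's call comes from the dim probe alone, whose liver signal was not lower in LPS livers, and it was lost without any of 6 arrays (LPS array 1, 3 or 4, or control array 1, 2 or 4).

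The 4 assembly factors, which help build complexes without being part of the final enzyme, held the steepest fall. Ndufaf1, which chaperones intermediates of the complex I membrane arm, had ratios of -0.42, -0.53, -0.49 and -0.51 in LPS livers, against 0.22, 0.00, 0.19 and 0.14 in control livers. The groups were far apart for this scale, with a difference of -0.62 ± 0.06 (limma adjusted p = 0.000539), kept whichever array was left out. The levels behind it were low in both groups, at 0.05 to 0.09 units in LPS livers and 0.07 to 0.11 units in control livers, and the 2 groups overlap in those units. The pool channel of Ndufaf1 read higher on LPS arrays (0.095 units, against 0.075 units on control arrays). Its call was lost with the liver channel alone. Ndufaf3, which acts early in complex I assembly, had 0.33, 0.24, 0.23 and 0.13 in LPS livers, against -0.03, 0.07, 0.08 and -0.01 in control livers, a rise of 0.21 ± 0.06 (limma adjusted p = 0.0345) that was lost without LPS array 1, 2 or 3 or control array 1 or 4. Its liver channel read lower in LPS livers, at 0.873 units, against 0.977 units in control livers, and so did the pool channel (0.74 units on LPS arrays, against 0.96 units on control arrays); with the liver channel alone the difference was -0.19 (adjusted p = 0.327). Cox7a2l, which tethers complex III to complex IV in supercomplexes, differed by 0.07 ± 0.06 (limma adjusted p = 0.47), and Ndufaf4 by 0.23 (95% confidence interval -0.24 to 0.70).

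The table's symbols are those of the array design, and 8 further genes carry names of these families only in the current gene table. They held 3 rises and 1 fall (37.5% higher and 12.5% lower, against 12.2% and 12.4% of all features). Ndufaf7, which methylates an arginine of a complex I core subunit, had ratios of 0.63, 0.85, 0.82 and 0.84 in LPS livers, against 0.08, 0.00, -0.06 and 0.00 in control livers, a difference of 0.78 ± 0.06 (limma adjusted p = 0.00031). Ndufaf5, which hydroxylates an arginine of another core subunit, had 0.67, 0.97, 0.78 and 0.77 in LPS livers, against 0.05, -0.17, 0.00 and 0.10 in control livers, a difference of 0.80 ± 0.08 (limma adjusted p = 0.000724). The groups were well apart for both. The complex II assembly factors split, with Sdhaf1 higher by 0.39 ± 0.11 (limma adjusted p = 0.0375) and Sdhaf3 lower at -0.38 ± 0.07 (limma adjusted p = 0.00587); both help put iron-sulfur clusters into Sdhb, whose own ratio was not called. These 8 genes were looked up after the table had been seen and are not among the 67.

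For 14 genes more than 1 probe was measured, and in 6 of them the probes went opposite ways. Besides Atp5f1c, this touched Ndufs4 and Ndufa12 with a call. Ndufs4, an accessory subunit needed for stable complex I, had a probe of 5.37 units in LPS livers and 4.67 units in control livers. The pool channel of this probe read 3.71 units on LPS arrays and 4.65 units on control arrays, so both channels enter its ratio. This probe had ratios of 0.54, 0.70, 0.48 and 0.40 in LPS livers, against 0.08, -0.14, 0.13 and -0.04 in control livers, and rose by 0.52 ± 0.08 (limma adjusted p = 0.00418, every probe on its own). Its dimmer probes differed by 0.20 ± 0.10 and -0.07 ± 0.09, so that the mean of 3 probes, at 0.22 ± 0.08, was not called (limma adjusted p = 0.0872). Ndufa12, an accessory subunit of the same arm, had probes at -0.62 ± 0.17 (adjusted p = 0.0349), 0.32 ± 0.10 (adjusted p = 0.0582) and -0.26 ± 0.14 (adjusted p = 0.224), and a mean of -0.19 ± 0.08 (limma adjusted p = 0.134). With every probe tested on its own, 24.9% of 23427 probes were called.

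**Figure D3:**
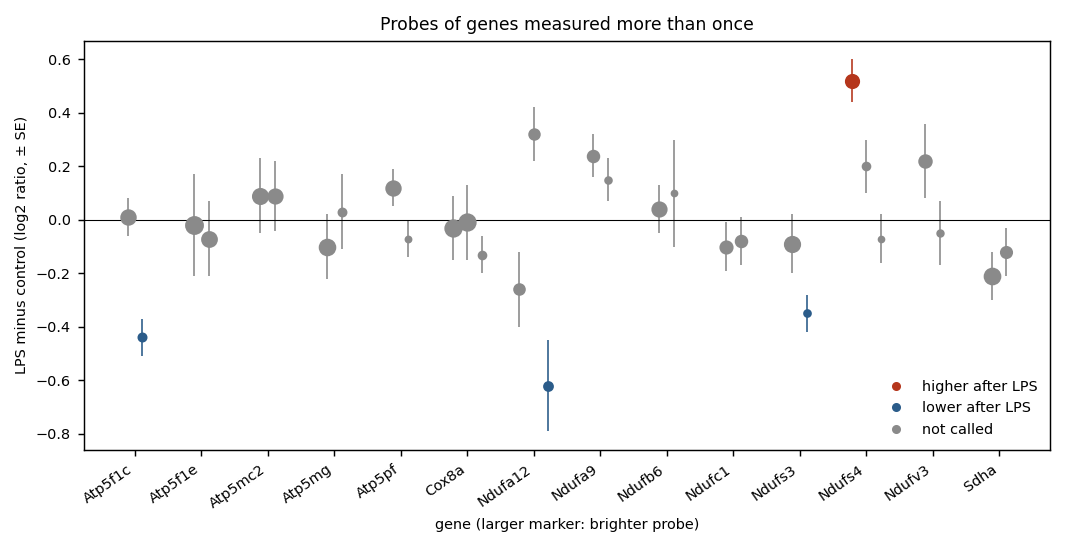
Difference between LPS and control livers (vertical axis, log2 ratio, ± SE) for each probe of the 14 genes with more than 1 probe, with larger markers for brighter probes. Called probes are red (higher) or blue (lower); the brightest probe of Ndufs4 is at 0.52 and the dim probe of Atp5f1c at -0.44, beside its bright one at 0.01.

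Few of the brightest members were called. Of the 32 members averaging at least 5 units in the liver channel, 1 was called (3.12%). It was Atp5f1c, whose call comes from its dim probe and not from its bright one. Of the 942 other features this bright, 49.7% were called. For 31 of the 32 the interval lay within 1.5-fold, against 45.1% of the other bright features. Intensity depends on the probe as well as on the gene, so these sets are matched on brightness and nothing else, and the difference between them was not tested. On the array medians, the members as a whole lay at -0.07, 0.12, 0.03 and -0.04 in LPS livers, against 0.01, 0.11, 0.00 and -0.03 in control livers. The range over livers of one group was thus wider than the gap between groups. Complex IV medians were -0.08, -0.05, -0.09 and -0.18 in LPS livers, against 0.03, 0.19, 0.00 and -0.07 in control livers. Complex I medians were -0.01, 0.22, 0.10 and 0.04 in LPS livers, against 0.01, 0.08, 0.07 and -0.02 in control livers. LPS array 2 was the highest LPS array for complexes I to V, and control array 2 the highest control array.

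**Figure D4:**
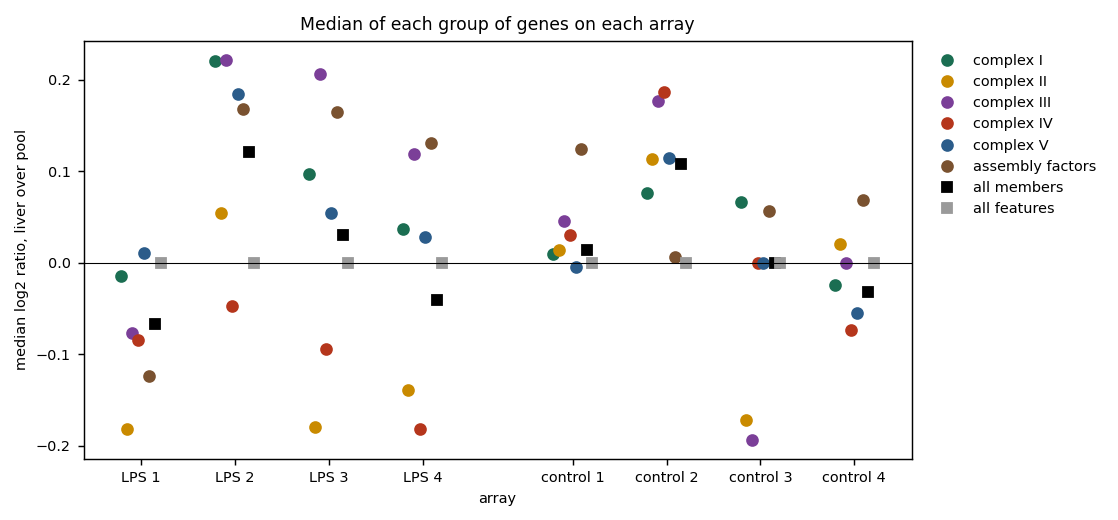
Median log2 ratio of liver over pool (vertical axis) of each group of genes on each array (horizontal axis, LPS arrays left of control arrays); squares are all members (black) and all features (grey, 0 on every array). Complex IV lies between -0.18 and -0.05 on the LPS arrays and between -0.07 and 0.19 on the control arrays, so that the groups overlap through control array 4.

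The pool channel holds the same RNA on every array but was not alike on all of them. The first component of its log2 intensities set LPS arrays 2 to 4 apart from control arrays 2 to 4, with LPS array 1 and control array 1 between them. In the pool channel itself 8 features were called by limma and 0 members, but 25.7% of all features and 28 of the members had an unadjusted p under 0.05. For the 59 member probes of at least 0.5 units the pool channel read lower on LPS arrays by a median of -0.15, with 55 of 59 below 0, beside a median of -0.10 over all probes this bright. The 26 dimmer member probes went the other way, with a pool median of 0.17 (10 of 26 below 0) and a liver channel median of 0.14. Over all probes these medians were 0.16 and 0.24, so a dim probe that reads higher on LPS arrays is not particular to its gene. The pool stands in the denominator of the ratio, and over the 85 member probes the 2 differences had a Pearson correlation of -0.32, given as a description since both contain the pool. A term for these array sets leaves the comparison to LPS array 1 and control array 1, and 0 members were called with it. In the liver channel alone 0 members were higher and 4 were lower (Cox8b, Ndufa6, Ndufa12 and Ndufa4), beside 7.13% of features higher and 10.1% lower.

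**Figure D5:**
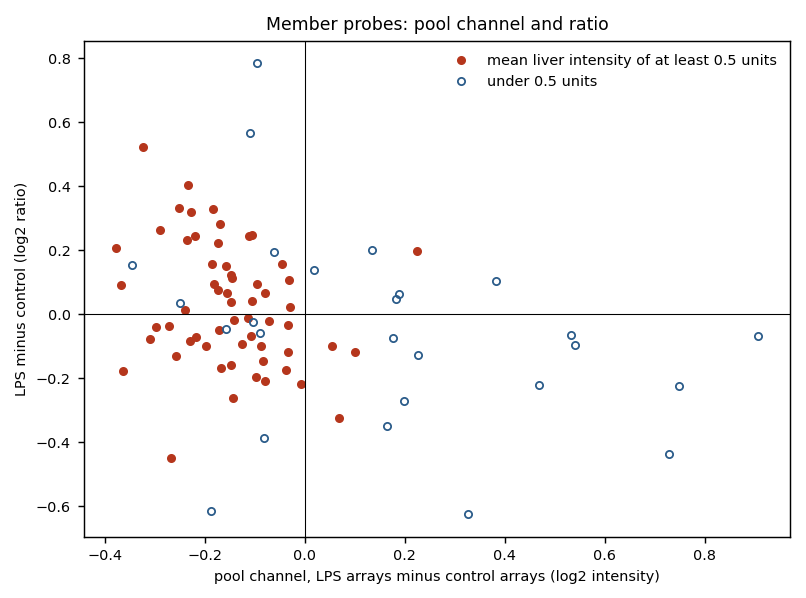
Member probes by the pool channel's difference between LPS arrays and control arrays (horizontal axis, log2 intensity) and the difference of the ratio (vertical axis, log2 ratio of liver over pool). Filled points are probes of at least 0.5 units, of which 55 of 59 lie left of 0; open points are dimmer probes, which reach 0.91 in the pool channel.

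Promoters of respiratory chain genes are known for sites of a few factors, among them NRF1, ETS factors such as GABP (also called NRF2), YY1 and estrogen-related receptors (ERR). RefSeq promoters of GRCr8, from 250 bases before the start to 50 after it, were found for 61 of the 68 genes and searched on both strands for 1 short form of each motif. The NRF1 form GCGCANGCG was in 18 of the 61 promoters (29.5%), against 5.8% of all 33469. The ETS form CCGGAAG was in 16 (26.2%, against 8.75% of all), the YY1 form AAGATGGCG in 10 (16.4%, against 1.73% of all), and the ERR form TCAAGGTCA in 1 (1.64%, against 0.433% of all). The forms were set after these promoters had been seen, and the 33469 were not matched to the members in any way. The shares are a description, and the difference between them was not tested. The ETS and YY1 forms can share the letters AAG, and a stretch that matched both was counted for both. Of the 5 that rose, 2 held the NRF1 form and 1 the ETS form, and of the 6 that fell, 2 held the NRF1 form, 3 the ETS form and 1 the YY1 form. Ndufaf1, the steepest fall, holds an ETS match (minus strand, chr3:127104021-127104140), and Sdha, which was not called, holds a pair of NRF1 matches in this stretch (plus strand, chr1:30764433-30764552). The 120 bases before each start are shown with the matches in capitals. They set a gene that moved beside one that was not called.
Ndufaf1: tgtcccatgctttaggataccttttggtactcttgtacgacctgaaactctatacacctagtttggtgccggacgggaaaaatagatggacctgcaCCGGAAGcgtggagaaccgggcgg
Sdha: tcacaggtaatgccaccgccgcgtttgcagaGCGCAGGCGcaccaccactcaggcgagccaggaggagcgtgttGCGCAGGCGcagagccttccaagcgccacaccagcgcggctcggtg

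Genes that work next to the complexes were taken from lists and read in the same fit. Of 14 genes of cytochrome c, ubiquinone synthesis and electron delivery, 5 rose and 2 fell (35.7% higher and 14.3% lower, against 12.2% and 12.4% of all features), with a median of 0.11. Cycs, cytochrome c itself, had ratios of 0.39, 0.84, 0.48 and 0.71 in LPS livers, against -0.07, -0.26, 0.03 and 0.26 in control livers, a rise of 0.61 ± 0.14 (limma adjusted p = 0.016). Coq7, a hydroxylase of ubiquinone synthesis, rose by 0.60 ± 0.12 (limma adjusted p = 0.01), while its lipid-binding partner Coq9 was lower at -0.27 ± 0.06 (limma adjusted p = 0.0185). Etfa, which delivers electrons from fatty acid oxidation, had -0.38, -0.31, -0.62 and -0.36 in LPS livers, against 0.14, -0.02, -0.07 and 0.04 in control livers, a difference of -0.44 ± 0.08 (limma adjusted p = 0.00765). Cyc1, the heme subunit of complex III that hands electrons to cytochrome c, was not called (0.14 ± 0.07, limma adjusted p = 0.195). Of 19 assembly factors outside the name rule 2 rose and 1 fell (15.8% called, under the 24.7% of all features): Cox17, a copper chaperone, at 0.32 ± 0.09 (limma adjusted p = 0.033), Atpaf2, which helps assemble the catalytic head of complex V, at 0.31 ± 0.06 (limma adjusted p = 0.00978), and Cox19 at -0.26 ± 0.06 (limma adjusted p = 0.0169).

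In the tricarboxylic acid cycle, which feeds complexes I and II, 1 of 15 genes rose and 3 fell, with a median of 0.15. At 26.7% called this is near the 24.7% of all features. Suclg2, a succinyl-CoA synthetase subunit, had ratios of -0.80, -0.59, -0.68 and -0.48 in LPS livers, against 0.03, 0.02, -0.13 and 0.14 in control livers, a difference of -0.65 ± 0.09 (limma adjusted p = 0.00189). Fh, fumarase, which acts on the product of complex II, was lower at -0.61 ± 0.14 (limma adjusted p = 0.0159), and Mdh2, the malate dehydrogenase that follows it, was higher at 0.37 ± 0.10 (limma adjusted p = 0.0319). Of 13 regulators of mitochondrial biogenesis and of mitochondrial DNA, 2 rose and 4 fell (46.2% called). Tfam, which packages and transcribes mitochondrial DNA, had -0.37, -0.28, -0.36 and -0.25 in LPS livers, against 0.23, -0.16, -0.12 and 0.01 in control livers, a difference of -0.31 ± 0.09 (limma adjusted p = 0.0431). Polrmt, the mitochondrial RNA polymerase, was lower at -0.35 ± 0.06 (limma adjusted p = 0.00588) and Twnk, the helicase, at -0.37 ± 0.07 (limma adjusted p = 0.00627). Polg2, the accessory subunit of the DNA polymerase, was higher at 0.87 ± 0.25 (limma adjusted p = 0.038), and Gabpb1, a subunit of GABP, at 0.60 ± 0.15 (limma adjusted p = 0.0226). Ppargc1a, Nrf1 and Esrra are not analysed here.

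Of 8 carriers and porins 1 rose in the ratio (12.5% called), Vdac2 of the outer membrane (0.47 ± 0.05, limma adjusted p = 0.00105). The liver channel of Vdac2 was nearly level, at 2.72 units in LPS livers and 2.69 units in control livers. Its pool channel read lower on LPS arrays (1.97 units, against 2.7 units on control arrays), so the higher ratio goes mostly with the pool. Of 7 genes for removal of superoxide and peroxide 1 rose (14.3% called), Prdx3 (0.36 ± 0.05, limma adjusted p = 0.00224), and Sod2, the manganese superoxide dismutase, was not called (0.25 ± 0.12, limma adjusted p = 0.176). Mitochondrial ribosomal proteins, which make the subunits encoded by mitochondrial DNA, had 22 of 63 genes higher (34.9%, against 12.2% of all features) and 1 lower, with a median of 0.19, and cytosolic ribosomal proteins 33 of 64 higher (51.6%) and 1 lower, with a median of 0.30. The oxidative phosphorylation genes, with 5 of 67 higher, 6 lower and a median of -0.02, stand beside these as other families of abundant, widely expressed proteins. The difference between the families was not tested.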

How the data were processed

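Each array's liver and pool intensity was deposited by the authors, per the file headers processed and linear, with 2 decimals apart from some of the smallest values. The labels' protocol starts from 100 ng of RNA, amplified in 2 rounds. The submitters' processing notes name Agilent Feature Extraction (8.5.1.1); how it treated background and dyes is not given in the sources used here. A p-value deposited for each probe, by the authors' model of a single array, was not used. The deposited series matrix held log10 ratios of the same arrays and served as an alternative. Since no label holds the numbers in the column headers, arrays have a group but no replicate number.

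Probes were named by RefSeq accession (4176), a current symbol (9464) or an older symbol brought up to date (2629) through the GRCr8 gene table; 469 kept a symbol not in that table and 6877 had none. Probes of a symbol were averaged after 188 with fewer than 3 values in a group were left out. log2(liver/pool), computed from the deposited intensities, went into limma's lmFit and eBayes (limma 3.58.1, R 4.3.3; prior degrees of freedom 1.54). Adjustment was by Benjamini-Hochberg across the 21052 features, with calls at 0.05. No filter on low values and no pseudocount were used. Standard errors had a median of 0.103 (log2), and the number of arrays limits the precision. In simulated data of 21052 features, 50 were changed at each of 4 folds. The fit found 6% of those made 1.2-fold different between LPS and control, 52% at 1.5-fold, 86% at 2-fold and 96% at 4-fold, with 8 false calls. Far fewer features were changed than the 5190 called in the real fit. The adjustment depends on that number, so these shares do not give the sensitivity of the reported fit.

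The members, the lists, the named genes (in each group the called members with the largest differences, up to 3 in each direction, complex II, isoform pairs, the 3 brightest tested members, genes with opposing probes and a call, and up to 2 rises and 2 falls per neighbouring list) and the alternatives were chosen with earlier results of these data known. Members mentioned beyond that rule (Uqcrfs1, Ndufa4, Ndufaf4, Emc8 and the 8 genes found by current symbol) were chosen after their values were seen. The motif forms were set after the promoters were seen; longer NRF1 and YY1 forms had been searched first. Other software was Python (3.11.15), numpy (2.4.6), pandas (2.3.3), matplotlib (3.10.9) and R's data.table package (1.17.8).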

Additional observations from a re-analysis of the deposited data

Results flagged for a closer look

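In 96 groups of 4 arrays (the named genes in LPS and in control livers) 7 had a single array far from the other 3, where chance gives about 1 group in 20. Among the members, LPS array 2 stood out for Ndufb4 (0.41, with the others at 0.23 to 0.24) and for Cox7a2 (0.36, with the others at 0.05 to 0.09), and LPS array 4 for Cox4i2 (-0.17, with the others at -0.08). Control array 3 stood out for Sdhb (-0.24, with the others at 0.01 to 0.02) and for Cox8b (0.00, with the others at 0.19), where 1 step of the table separates the values. Outside the members, LPS array 2 stood out for Coq7 (0.99, with the others at 0.50 to 0.52) and control array 3 for Fh (-0.36, with the others at 0.04 to 0.12).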

How the results depend on the processing

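The reported fit called 5 members higher, 6 lower and 5190 features in all, with a member median of -0.02. Quantile normalization of the ratios gave 0 higher, 2 lower (Cox8b and Ndufaf1) and 1517 features. A term for the pool-channel array sets gave 0, 0 and 559, and a test against 1.5-fold gave 0, 0 and 391. The liver channel alone gave 0 higher and a member median of -0.10, and turned Cox6b2 to 0.23 (adjusted p = 0.445) and Ndufaf3 to -0.19 (adjusted p = 0.327). Leaving out control array 3 with LPS array 1 gave 1 higher and 3 lower, and leaving out each array in turn gave 2 to 5 higher, 3 to 7 lower and a median of -0.06 to 0.05. The cause of these moves was not tested, and the last of them also came from fits with fewer arrays. Applying the name rule to current symbols, an alternative chosen after seeing the data, gave 8 higher and 7 lower among 73 genes, with a median of 0.04. The sign of the member median is not fixed, since it was also 0.04 with array weights or without dim probes. Over the alternatives, Cox8b kept its call in 19 of 21 and Ndufa6 in 19 of 22, while Atp5f1c and Ndufb4 kept theirs in 9 of 22. Cox8b has fewer alternatives because the fit without dim probes left out its probe, so its call could not be tried there. These counts include alternatives that could hardly end a call. Array medians were already 0 before centring, and the series matrix holds ratios of the same arrays. Taking only values on all 8 arrays, or leaving out probes near the ceiling, also kept all 11 calls. The labels' replicate numbers could be used only on the series matrix's values. With them as a replicate block 2 members were higher and 5 lower, and the deviations of same-numbered samples had correlations of -0.00305, -0.0106, 0.0152 and 0.153, so the numbers are not read as pairs. Signal limits the dim members, whose values span a few steps of 0.01 units.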
